A study of Cricetulus griseus with 24 samples.

Results

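The integrated stress response genes described here are Atf4, Trib3, Chac1, Nupr1, Atf3, Atf5, Ppp1r15a, Ddit3, Ddit4 and Asns. They were chosen by gene name, as 10 of the 26776 gene names in the count tables, with earlier results of these data known. All 10 were counted in each of 24 RNA-seq libraries. The phagocytes were LR73 cells, Chinese hamster cells labelled as cultured fibroblasts that engulf dying cells. Jurkat cells, a line of human T lymphocytes, served as targets and were made apoptotic by 1500 mJ of ultraviolet C and cultured 4 h more. In the first experiment, 4 groups of 4 libraries came from phagocytes alone (control), phagocytes given apoptotic cells, phagocytes given cytochalasin D, and phagocytes given both. Cytochalasin D caps actin filaments and so blocks uptake. In another experiment, LR73 cells of wildtype genotype or deficient in Slc12a2, a cotransporter of sodium, potassium and chloride, spent 2 h with apoptotic cells, and cells positive for the acid-sensitive dye CypHer5E were sorted as engulfing, with 4 libraries per genotype. This second experiment held no cells without targets and no unsorted cells, and how Slc12a2 was removed, and in how many clones, is not given in the labels.

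The integrated stress response begins when kinases that sense amino acid shortage, misfolded protein, viral RNA or haem deficiency phosphorylate the translation factor eIF2. General translation slows, while the mRNA of the transcription factor ATF4 is translated more, and ATF4 then raises genes for amino acid supply, tRNA charging and redox balance. Prolonged activity brings in CHOP (Ddit3), ATF3, the pseudokinase TRIB3 and the glutathione-degrading enzyme CHAC1, and GADD34 (Ppp1r15a) restores translation by directing a phosphatase to eIF2. The counts measure mRNA, so they carry no measurement of eIF2 phosphorylation or of ATF4 protein.

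Libraries of the first experiment held 8275769 to 18917152 counted fragments, and those of the second 23059998 to 28838553. A level is given in CPM, counts per 1000000 after TMM scaling, with its SD over 4 libraries. A gene was called changed at an edgeR adjusted p under 0.05 over all genes tested, 13106 in the first experiment and 13050 in the second, and all 10 genes passed the filter on low counts in both. Slc12a2 itself was at 91.2 to 103 CPM in wildtype and at 22.4 to 26.2 CPM in Slc12a2-deficient libraries, so the labels held and some transcript was left. Of 10 fibroblast markers, 9 were in the tables and summed to between 4216 and 7242 CPM in every library, nearly all of it from Vim, Fn1, Sparc and S100a4. Col1a1, Col1a2 and Thy1 were at no more than 0.138 CPM and Col3a1 at no more than 1.57 CPM in any group mean, so the collagens that define many fibroblasts were near 0. Of 14 T lymphocyte markers, Cd3g, Cd2 and Cd5 had no count in any group, and the summed level of the list was 34.8 to 37.2 CPM in control, 42.2 to 45.1 CPM with apoptotic cells, 30.8 to 37.1 CPM with cytochalasin D and 41.2 to 46.4 CPM with both. Most of the T lymphocyte sum came from Tcf7 and Lat, at 23.7 and 11.0 CPM in control and 23.0 and 11.1 CPM with apoptotic cells. The targets are human and the phagocytes hamster, and how much target RNA these counts capture was not tested in either experiment. Myeloid markers, of which 4 of 6 were in the tables, summed to at most 3.75 CPM. Libraries control 4, cytochalasin D 1 and apoptotic cells with cytochalasin D 4 stood apart from the rest on the third principal component. In RNA from whole cultures, fewer cells with a transcript and less transcript per cell cannot be told apart.

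In control cells, per kilobase of counted exon, Atf4 was the most abundant of the 10 genes at 179 CPM per kb, above 96.3% of the genes tested. Nupr1, a small chromatin-associated stress protein, followed at 100.4 CPM per kb. Atf5, a transcription factor related to ATF4, was at 39.4, asparagine synthetase Asns at 31.3 and Ppp1r15a at 26.4 CPM per kb. Chac1, Ddit3, Ddit4 and Trib3 lay between 11.1 and 18.2 CPM per kb. Atf3 was the scarcest at 1.19 CPM per kb, above 13.3% of the genes tested, and its control libraries held 23 to 50 counts each. Between the highest and the lowest group mean of the first experiment, the level ranged 7.18-fold for Atf3, 4.16-fold for Trib3, 2.12-fold for Ddit3 and 2.08-fold for Atf4, and only 1.18-fold for Atf5.

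**Figure D1:**
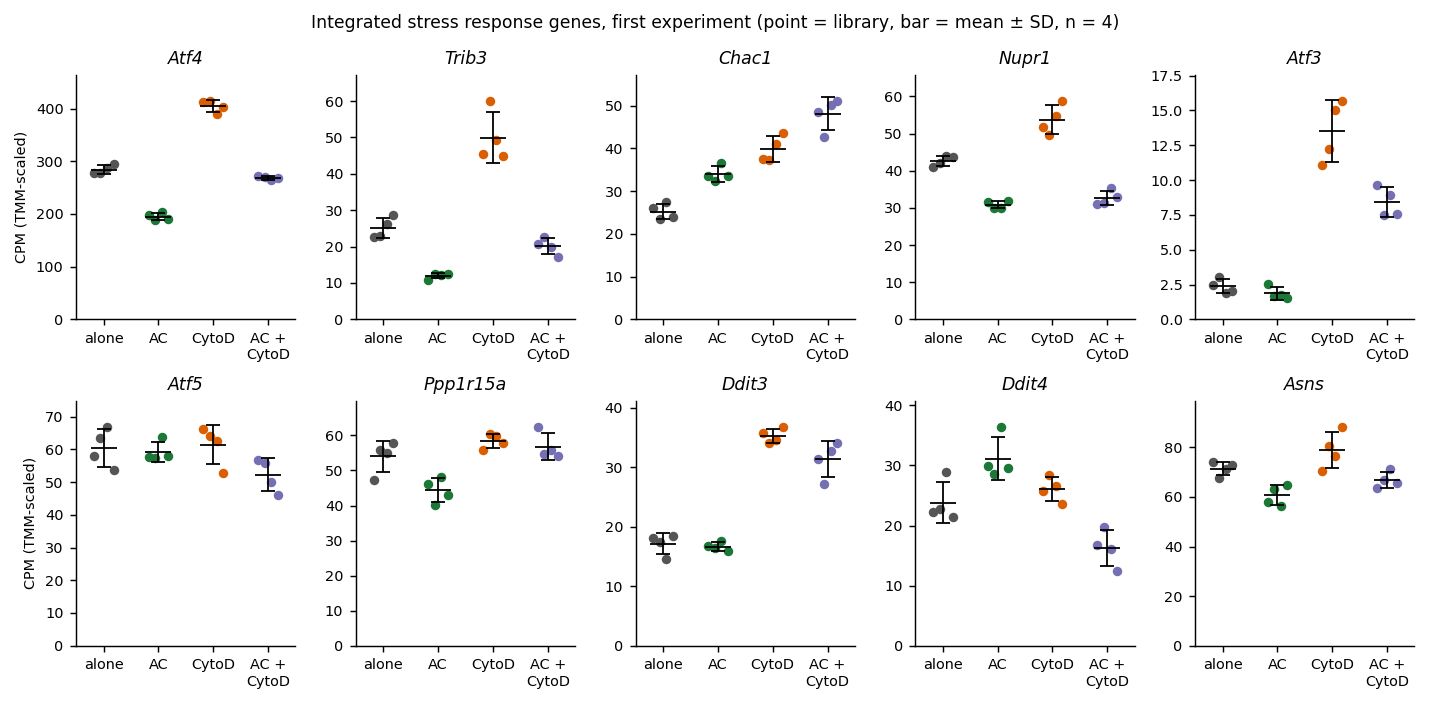
Levels of the 10 genes in the 16 libraries of the first experiment, in CPM from 0 on each vertical axis. AC stands for apoptotic cells and CytoD for cytochalasin D, points are libraries and bars are means ± SD over 4 libraries. Atf4 and Trib3 are highest with cytochalasin D alone and lowest with apoptotic cells alone, whereas Chac1 is higher in each treated group than in control.

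The first comparison asked what apoptotic cells change in phagocytes. Atf4, Trib3, Nupr1, Ppp1r15a and Asns fell, Chac1 and Ddit4 rose, and Atf3, Atf5 and Ddit3 did not pass the test. The 7 called genes of 10 stand against 13.7% of all genes tested (6.97% higher and 6.68% lower), and 5 of 10 had groups that did not overlap, against 19.6% of all genes. The median log2 fold change of the 10 genes was -0.26, against 0.00 over all genes. When cytochalasin D was present in both groups, apoptotic cells again gave 7 calls of 10, against 8.61% of all genes tested (4.82% higher and 3.79% lower), and 5 of 10 without overlap, against 13.5%. Of these, Atf4, Trib3, Nupr1, Asns, Atf3 and Ddit4 fell and Chac1 rose, with a median log2 fold change of -0.42 against -0.01 over all genes.

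The other axis of the design asked what cytochalasin D changes. Without apoptotic cells, Atf3, Ddit3, Trib3, Chac1, Atf4 and Nupr1 rose and none of the 10 fell by the test, giving 6 calls of 10 against 26.3% of all genes tested (13.5% higher and 12.8% lower) and 6 of 10 without overlap against 24.3%. With apoptotic cells in both groups, Atf3, Ddit3, Trib3, Chac1, Atf4 and Ppp1r15a rose and Ddit4 fell, giving 7 calls of 10 against 32.5% (16.4% higher and 16.1% lower) and 8 of 10 without overlap against 32.1%. The median log2 fold change of the 10 genes was 0.42 without and 0.41 with apoptotic cells, against 0.01 and -0.00 over all genes.

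Atf4, the transcription factor at the head of the transcriptional response, was at 277, 278, 287 and 295 CPM in control libraries and at 198, 189, 203 and 190.2 CPM with apoptotic cells. It was at 412, 415, 389.9 and 404 CPM with cytochalasin D and at 273, 271, 264 and 269 CPM with both. No group overlapped its neighbour in the order cytochalasin D, control, both, apoptotic cells. Apoptotic cells lowered Atf4 1.45-fold (log2 -0.54, SE 0.04, edgeR adjusted p = 1.69e-09), from 284 ± 8.38 to 195 ± 6.54 CPM (SD, n = 4). Under cytochalasin D they lowered it 1.5-fold (log2 -0.59, SE 0.04, edgeR adjusted p = 2.41e-10), from 405 ± 11.2 to 269 ± 3.84 CPM. Cytochalasin D raised Atf4 1.43-fold alone and 1.38-fold with apoptotic cells (edgeR adjusted p = 1.19e-10 and 7.10e-10).

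Trib3, which binds ATF4 and the kinase AKT and restrains both, followed the same order of groups. Control libraries held 22.6, 23.0, 26.3 and 28.5 CPM and libraries with apoptotic cells 10.9, 12.6, 12.2 and 12.4 CPM. Libraries with cytochalasin D held 45.4, 60.1, 49.2 and 45.0 CPM, and those with both 20.8, 22.7, 19.9 and 17.2 CPM. Every pair of neighbouring groups was separate except control and both treatments, which overlapped. Trib3 fell 2.08-fold with apoptotic cells (log2 -1.05, SE 0.11, edgeR adjusted p = 7.06e-07) and 2.48-fold under cytochalasin D (log2 -1.31, SE 0.10, edgeR adjusted p = 1.11e-08). In these comparisons, 1.89% and 1.08% of all genes tested changed by as much or more. Cytochalasin D raised it 2.00-fold alone and 1.67-fold with apoptotic cells (edgeR adjusted p = 3.79e-08 and 1.67e-05).

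Nupr1 was at 41.0, 42.0, 44.1 and 43.6 CPM in control, 31.6, 30.1, 30.1 and 31.9 CPM with apoptotic cells, 51.7, 49.7, 54.8 and 58.8 CPM with cytochalasin D, and 30.9, 31.4, 35.2 and 33.0 CPM with both. The groups with apoptotic cells overlapped each other and lay below the groups without them. Nupr1 fell 1.38-fold with apoptotic cells and 1.65-fold under cytochalasin D (edgeR adjusted p = 4.58e-05 and 1.02e-07). Cytochalasin D alone raised it 1.26-fold (edgeR adjusted p = 0.000283), while with apoptotic cells it was at 0.08 on the log2 scale and not called (SE 0.07, edgeR adjusted p = 0.398).

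Atf3, a transcription factor induced by many stresses, and Ddit3, which encodes CHOP, a driver of death under lasting stress, were set apart by cytochalasin D. Atf3 was at 2.49, 3.03, 1.90 and 2.07 CPM in control and at 11.1, 12.2, 15.1 and 15.7 CPM with cytochalasin D. With apoptotic cells it was at 2.57, 1.71, 1.74 and 1.51 CPM, and with both at 9.67, 7.48, 8.92 and 7.55 CPM. Both groups with cytochalasin D lay above both groups without it. Atf3 rose 5.61-fold with cytochalasin D alone (log2 2.49, SE 0.18, edgeR adjusted p = 1.41e-10), an amount reached by 0.206% of all genes tested, and 4.56-fold with apoptotic cells (log2 2.19, SE 0.19, edgeR adjusted p = 3.54e-09). Apoptotic cells lowered Atf3 1.60-fold under cytochalasin D (log2 -0.67, SE 0.15, edgeR adjusted p = 0.00669). Without the drug the value was -0.37 on the log2 scale (SE 0.22), which edgeR did not call (adjusted p = 0.270).

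Ddit3 was at 18.2, 17.3, 14.6 and 18.4 CPM in control, 16.7, 16.5, 17.6 and 15.8 CPM with apoptotic cells, 35.7, 34.0, 34.6 and 36.7 CPM with cytochalasin D, and 31.4, 27.1, 32.7 and 34.1 CPM with both. Apoptotic cells left the groups overlapping, with log2 fold changes of -0.04 (SE 0.09) and, under cytochalasin D, -0.16 (SE 0.08), neither called by edgeR. Cytochalasin D raised Ddit3 2.06-fold alone and 1.89-fold with apoptotic cells (edgeR adjusted p = 1.19e-09 and 1.06e-08). The exons of Ddit3 overlap those of Mars, the methionine tRNA synthetase gene on the other strand, by 65 bases, and fragments were counted without strand. Mars itself had log2 fold changes of 0.11 and 0.10 in the same comparisons and was not called. Exons of the other 9 genes overlapped no other gene.

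Chac1, a target of ATF4 and CHOP, was the one gene of the 10 that both treatments raised in every comparison. It was at 26.0, 23.4, 27.4 and 24.0 CPM in control, 33.6, 32.3, 36.5 and 33.6 CPM with apoptotic cells, 37.5, 37.3, 41.1 and 43.7 CPM with cytochalasin D, and 48.6, 42.6, 50.1 and 51.1 CPM with both. Control libraries lay below all others, and the groups with cytochalasin D overlapped each other. Chac1 rose 1.35-fold with apoptotic cells (log2 0.43, SE 0.08, edgeR adjusted p = 0.000537) and 1.58-fold with cytochalasin D (edgeR adjusted p = 4.10e-07). With apoptotic cells in both groups, cytochalasin D raised it 1.42-fold (edgeR adjusted p = 1.17e-05). Under cytochalasin D, apoptotic cells raised it 1.21-fold (log2 0.27, SE 0.07, edgeR adjusted p = 0.0201), a call lost without the 3 libraries that stood apart (adjusted p = 0.152). It was also lost without cytochalasin D 1, cytochalasin D 2, both 3 or both 4 (adjusted p = 0.0577, 0.0680, 0.0671 and 0.0681).

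Ppp1r15a, the feedback phosphatase subunit, was at 47.4, 55.8, 54.9 and 57.8 CPM in control and at 46.3, 40.2, 48.2 and 43.1 CPM with apoptotic cells. It was at 56.0, 60.4, 59.9 and 57.9 CPM with cytochalasin D and 62.4, 54.6, 56.0 and 54.2 CPM with both. The lowest control library fell inside the range of the group with apoptotic cells. Ppp1r15a fell 1.21-fold with apoptotic cells (log2 -0.28, SE 0.07, edgeR adjusted p = 0.0104), and rose 1.28-fold with cytochalasin D when apoptotic cells were present (log2 0.36, SE 0.07, edgeR adjusted p = 0.000367). The other tests gave log2 fold changes of 0.12 for cytochalasin D alone and -0.04 for apoptotic cells under it (edgeR adjusted p = 0.220 and 0.796).

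Atf5 lay between 46.2 and 66.8 CPM in all 16 libraries and was not called in any comparison of the first experiment. Its log2 fold changes were -0.03 (SE 0.08) for apoptotic cells, 0.02 (SE 0.08) for cytochalasin D, -0.23 (SE 0.08) for apoptotic cells under cytochalasin D and -0.18 (SE 0.08) for cytochalasin D with apoptotic cells, with edgeR adjusted p of 0.838, 0.900, 0.0792 and 0.0905. The group with both treatments was the lowest, at 52.3 ± 5.08 CPM, against 59.2 ± 3.10 to 61.4 ± 6.02 CPM in the other groups (SD, n = 4).

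Asns, which makes asparagine and is a classical ATF4 target, was at 74.1, 67.6, 71.3 and 72.9 CPM in control and at 57.9, 63.2, 56.5 and 64.8 CPM with apoptotic cells. It was at 70.6, 80.4, 76.4 and 88.2 CPM with cytochalasin D and at 63.6, 67.0, 71.3 and 65.6 CPM with both. In the order of group means each group overlapped the next. Asns fell 1.18-fold with apoptotic cells (log2 -0.24, SE 0.06, edgeR adjusted p = 0.0164) and 1.18-fold under cytochalasin D (log2 -0.24, SE 0.07, edgeR adjusted p = 0.0201). The first call was lost without control 1, apoptotic cells 1 or apoptotic cells 3 (adjusted p = 0.0546, 0.0542 and 0.0684), and the other without cytochalasin D 2, cytochalasin D 4, both 1 or both 4 (adjusted p = 0.0657, 0.0648, 0.0707 and 0.0660). Cytochalasin D gave log2 fold changes of 0.14 in both comparisons, neither called.

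Ddit4, which encodes the mTORC1 inhibitor REDD1, was the gene of the 10 whose response to apoptotic cells differed with cytochalasin D. Control libraries held 22.2, 22.7, 28.9 and 21.3 CPM and libraries with apoptotic cells 29.9, 28.6, 36.4 and 29.6 CPM. Libraries with cytochalasin D held 25.7, 28.4, 26.5 and 23.5 CPM, and those with both 16.8, 19.8, 16.1 and 12.4 CPM. Libraries with both treatments were the lowest and overlapped no other group. Ddit4 rose 1.31-fold with apoptotic cells (log2 0.39, SE 0.11, edgeR adjusted p = 0.0223) and fell 1.61-fold under cytochalasin D (log2 -0.69, SE 0.12, edgeR adjusted p = 0.000569). The rise was lost without control 1, control 2, control 4 or apoptotic cells 3 (adjusted p = 0.0739, 0.0568, 0.0713 and 0.109). The difference between these effects was -1.08 on the log2 scale (SE 0.16, edgeR adjusted p = 0.000452), 1 call of 10 against 4.56% of all genes tested (3.03% higher and 1.53% lower). For the other 9 genes the difference lay between -0.30 and 0.24 and was not called. For cytochalasin D, Ddit4 had a log2 fold change of 0.13 alone (edgeR adjusted p = 0.456) and fell 1.93-fold with apoptotic cells (log2 -0.95, SE 0.12, edgeR adjusted p = 1.16e-06).

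The comparisons of apoptotic cells with and without the drug share no library, and neither do those of cytochalasin D with and without apoptotic cells. Atf4, Trib3, Nupr1 and Asns were lower with apoptotic cells in both, which is 4 of the 5 and of the 6 lower genes of the 10. Over all genes, 172 were lower in both, 19.7% of 875 and 34.6% of 497. Atf4, Trib3, Chac1, Atf3 and Ddit3 were higher with cytochalasin D in both, 5 of 6 and of 6. Over all genes, 1132 were higher in both, 52.8% of 2145 and 63.9% of 1772. Beside the results with apoptotic cells, the T lymphocyte kinases Lck and Zap70 were at 0.0259 and 0.0130 CPM in control and at 3.20 and 3.35 CPM with apoptotic cells, and at 0 CPM with cytochalasin D and 3.07 and 2.96 CPM with both. Fibroblast markers summed to 5527 to 6085 CPM in control, 6719 to 7242 CPM with apoptotic cells, 4467 to 5111 CPM with cytochalasin D and 4524 to 4971 CPM with both. Of the 6 fibroblast markers tested, Vim alone was called, 1.25-fold higher with apoptotic cells and 1.32-fold lower with cytochalasin D (edgeR adjusted p = 0.000284 and 3.49e-06). Of the same 6, 1 fell with apoptotic cells under cytochalasin D and 3 fell with cytochalasin D when apoptotic cells were present. The part of these markers in the results was not tested.

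**Figure D2:**
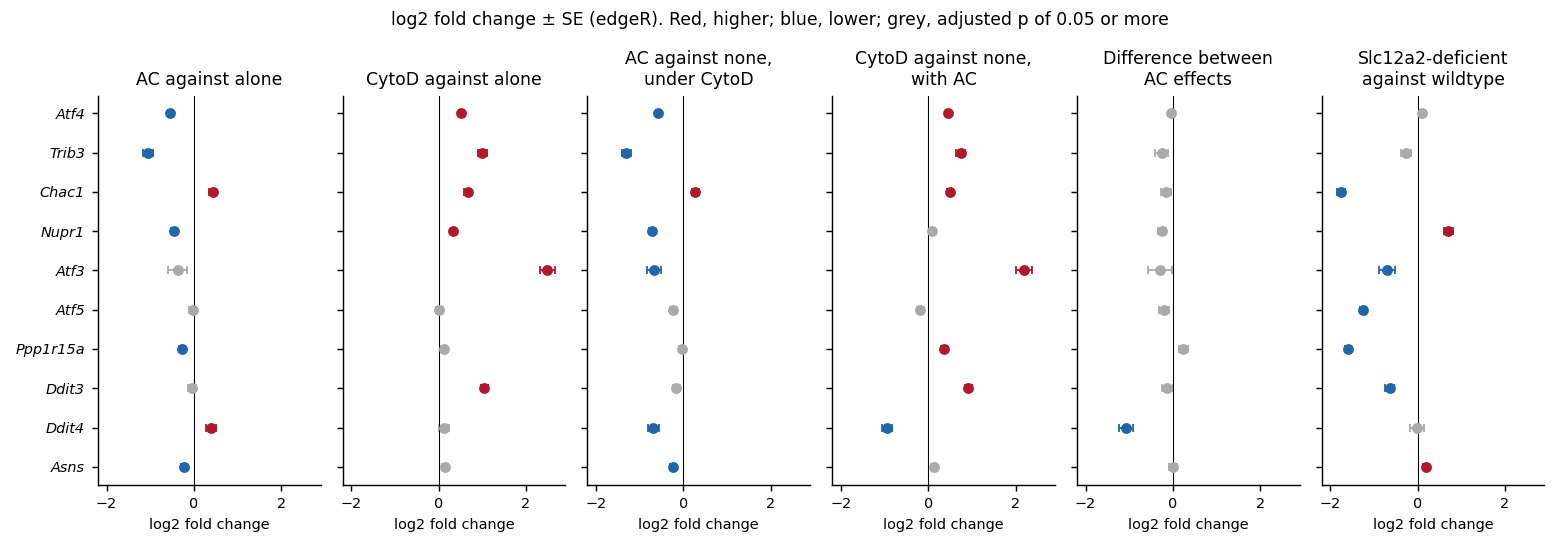
log2 fold change ± SE (edgeR) of the 10 genes in 6 comparisons, with called genes in red (higher) or blue (lower) and the rest in grey. AC stands for apoptotic cells and CytoD for cytochalasin D. Cytochalasin D raises Atf3 most, at 2.49 alone and 2.19 with apoptotic cells, and in the genotype comparison Chac1, at -1.75, and Ppp1r15a, at -1.59, lie furthest to the left.

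In the second experiment, which asked what loss of Slc12a2 changes in engulfing phagocytes, Chac1, Ppp1r15a, Atf5, Ddit3 and Atf3 were lower in Slc12a2-deficient cells, Nupr1 and Asns were higher, and Atf4, Trib3 and Ddit4 did not pass the test. The 7 calls of 10 stand against 42.5% of all genes tested (21.1% higher and 21.3% lower), and 6 of 10 had groups that did not overlap, against 39.6%. The median log2 fold change of the 10 genes was -0.46, against -0.00 over all genes. Their median absolute log2 fold change, a measure not given for the first experiment, was 0.67, against 0.17 over all genes.

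Chac1 was at 19.7, 18.2, 19.4 and 18.2 CPM in wildtype and at 5.27, 6.45, 5.21 and 5.42 CPM in deficient libraries. It was 3.37-fold lower (log2 -1.75, SE 0.08, edgeR adjusted p = 2.17e-10), an amount reached by 1.80% of all genes tested. Ppp1r15a was at 91.0, 84.4, 98.1 and 97.5 CPM in wildtype and at 27.2, 30.1, 33.8 and 31.7 CPM in deficient libraries. The groups of both genes lay far apart, and Ppp1r15a was 3.02-fold lower (log2 -1.59, SE 0.07, edgeR adjusted p = 6.08e-11). Atf5, which was not called in the first experiment, was at 39.9, 38.9, 34.9 and 35.2 CPM in wildtype and at 15.7, 16.1, 16.8 and 13.6 CPM in deficient libraries. Its groups did not overlap and it was 2.39-fold lower (log2 -1.25, SE 0.07, edgeR adjusted p = 2.21e-09).

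Ddit3 was at 11.9, 12.0, 14.2 and 14.7 CPM in wildtype and at 7.10, 8.05, 9.31 and 9.32 CPM in deficient libraries, 1.56-fold lower (log2 -0.64, SE 0.10, edgeR adjusted p = 0.000122). Mars, whose exons it overlaps, had a log2 fold change of 0.02 and was not called. Atf3 was at 2.28, 2.07, 1.79 and 1.51 CPM in wildtype and at 1.19, 1.17, 1.19 and 1.15 CPM in deficient libraries, 1.62-fold lower (log2 -0.70, SE 0.17, edgeR adjusted p = 0.00446). These levels rest on 38 to 58 counts per wildtype and 26 to 33 per deficient library. Neither gene had overlapping groups.

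Nupr1 moved the other way, from 14.3, 14.8, 10.4 and 12.6 CPM in wildtype to 20.5, 24.2, 19.1 and 20.3 CPM in deficient libraries, without overlap. It was 1.62-fold higher (log2 0.69, SE 0.10, edgeR adjusted p = 6.03e-05). Asns was at 47.2, 49.2, 42.2 and 43.1 CPM in wildtype and at 55.1, 54.0, 48.0 and 50.1 CPM in deficient libraries, 1.14-fold higher with overlap (log2 0.19, SE 0.06, edgeR adjusted p = 0.0218). That call was lost without wildtype 3, wildtype 4 or Slc12a2-deficient 1 (adjusted p = 0.0813, 0.0730 and 0.0674).

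Atf4 was at 208, 203, 193 and 188 CPM in wildtype and at 197, 218, 212 and 223 CPM in deficient libraries, with a log2 fold change of 0.10 (SE 0.05, edgeR adjusted p = 0.113). Without Slc12a2-deficient 1 it was called (adjusted p = 0.0346). Trib3 was at 8.0, 7.43, 5.68 and 6.99 CPM in wildtype and at 5.96, 6.34, 5.25 and 5.68 CPM in deficient libraries, with a log2 fold change of -0.27 (SE 0.11, edgeR adjusted p = 0.0653). Without wildtype 3 or Slc12a2-deficient 2 it was called (adjusted p = 0.0149 and 0.0465). Ddit4 was at 11.2, 10.5, 9.04 and 7.87 CPM in wildtype and at 11.6, 11.7, 7.83 and 6.93 CPM in deficient libraries, with a log2 fold change of -0.02 (SE 0.16, edgeR adjusted p = 0.943). All 3 genes had overlapping groups.

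The libraries of the second experiment carry running numbers, 9, 10, 13 and 14 for wildtype and 11, 12, 15 and 16 for deficient cells, and the labels do not give what the numbers mark. Within libraries 9 to 12 and 13 to 16, with 2 libraries per genotype, the log2 ratio of deficient to wildtype means was -1.69 and -1.83 for Chac1, -1.62 and -1.58 for Ppp1r15a, -1.31 and -1.21 for Atf5, -0.66 and -0.63 for Ddit3, -0.88 and -0.50 for Atf3, 0.62 and 0.78 for Nupr1, and 0.18 and 0.20 for Asns. Each of the 7 called genes thus had its direction in both runs of numbers, as did Trib3, at -0.33 and -0.21, and Atf4, at 0.02 and 0.19, while Ddit4, at 0.10 and -0.20, did not. T lymphocyte markers summed to 29.5 to 32.1 CPM in wildtype and 23.2 to 28.0 CPM in deficient libraries. Cd3e and Zap70 were at 0 counts in both. Most of these sums came from Tcf7, Lat and Cd28, which were also counted in phagocytes alone in the first experiment. From wildtype to deficient cells, Tcf7 went from 16.1 to 18.5 CPM, Lat from 10.8 to 4.66 CPM and Cd28 from 3.92 to 1.36 CPM. Lck was at 0.0585 CPM in wildtype and 0.0495 CPM in deficient cells. Fibroblast markers summed to 4391 to 4722 and 4216 to 4506 CPM, but within the list 5 of 6 tested were lower and 1 higher in deficient cells, with a median log2 fold change of -0.71. Fn1 went from 1248 to 654 CPM and Pdgfrb from 6.71 to 1.38 CPM, while Vim went from 2962 to 3402 CPM (edgeR adjusted p = 2.39e-07, 5.65e-08 and 0.00157). The part of either list in the results was not tested.

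**Figure D3:**
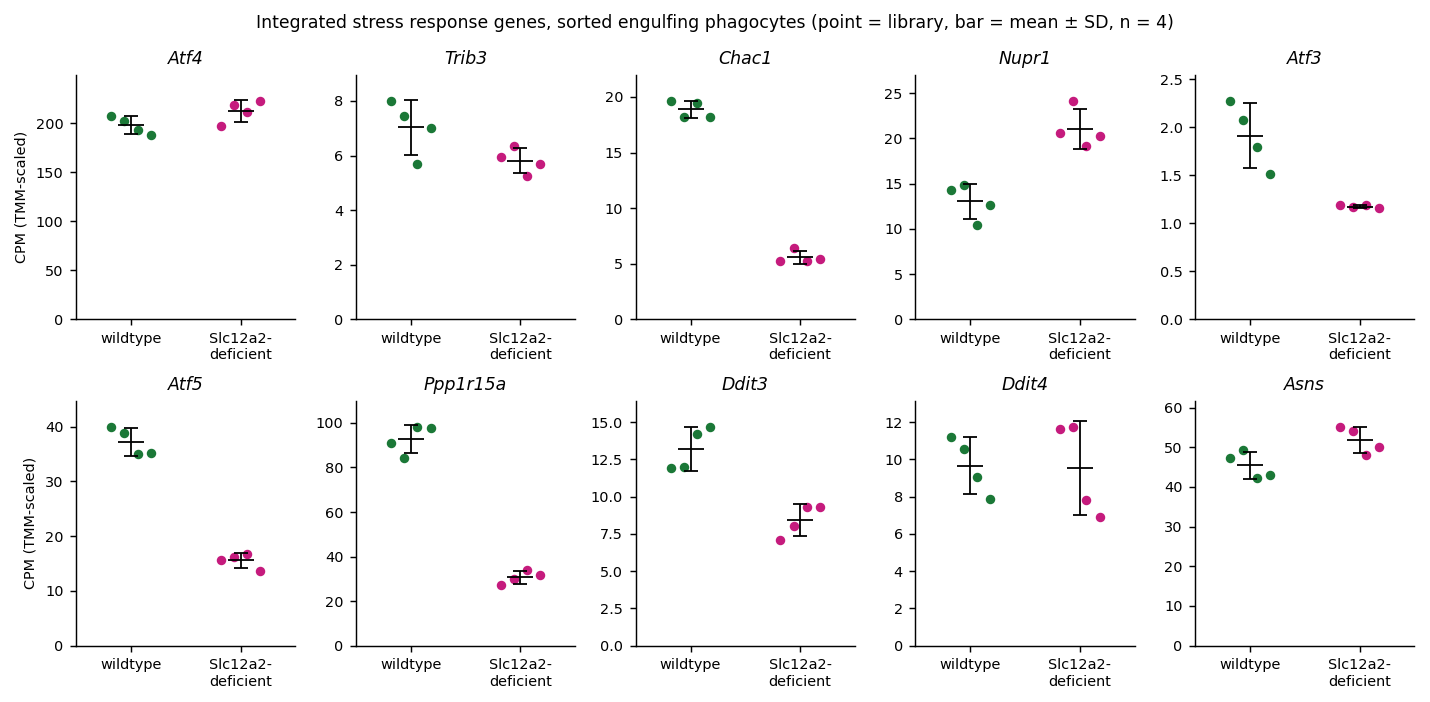
Levels of the 10 genes in sorted engulfing phagocytes, wildtype and Slc12a2-deficient, in CPM from 0 on each vertical axis. Points are libraries and bars are means ± SD over 4 libraries. Chac1, Ppp1r15a, Atf5, Ddit3 and Atf3 are lower without overlap in deficient cells, Nupr1 is higher without overlap, and the groups of Atf4, Trib3, Ddit4 and Asns overlap.

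Other genes of the pathway were tested by list, and each list's counts are to be read against the shares of all genes that rose and fell. These were 6.97% and 6.68% with apoptotic cells, 4.82% and 3.79% with apoptotic cells under cytochalasin D, 13.5% and 12.8% with cytochalasin D, 16.4% and 16.1% with cytochalasin D when apoptotic cells were present, and 21.1% and 21.3% in Slc12a2-deficient cells. The lists are short, and many counts changed when 1 library was left out.

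Upstream of the 10 genes stand the eIF2 kinases and the translation factors they act on. Of 3 kinases tested, none was called with apoptotic cells, while Eif2ak3 (PERK, the kinase of the endoplasmic reticulum) rose with cytochalasin D. Eif2ak3 went from 37.0 ± 1.08 to 49.0 ± 1.71 CPM, 1.33-fold higher (log2 0.41, edgeR adjusted p = 5.01e-06), and was 1.32-fold higher in Slc12a2-deficient cells (log2 0.40, edgeR adjusted p = 3.43e-05). Both calls held with any 1 library left out. Eif2ak4 (GCN2, the amino acid sensor) was also called, higher with cytochalasin D (log2 0.16, edgeR adjusted p = 0.0418) and lower in deficient cells (log2 -0.17, edgeR adjusted p = 0.0103). The first call was lost in 6 of 8 fits with 1 library left out, those without control 1, 2 or 3 or cytochalasin D 1, 3 or 4 (adjusted p up to 0.133), and the other without wildtype 4 (adjusted p = 0.0506).

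Of 12 subunits of eIF2, of its exchange factor eIF2B and of the eIF2 phosphatases, 2 rose and 1 fell with apoptotic cells, where the 1 became 0 without control 1, apoptotic cells 1 or apoptotic cells 3. With cytochalasin D 1 rose and 3 fell, and with single libraries left out 0 to 1 rose and 1 to 4 fell, the lowest number without control 1 or cytochalasin D 1. In deficient cells 3 rose and none fell, a share near that of all genes, and 1 rose without wildtype 4. Eif2b4, a subunit of eIF2B, rose 1.3-fold with apoptotic cells (log2 0.38, edgeR adjusted p = 0.000119), a call kept with any 1 library left out. The difference of its response under cytochalasin D (log2 -0.33, edgeR adjusted p = 0.0268) was lost in 7 of 16 fits with 1 library left out (adjusted p up to 0.0658) and without the 3 libraries that stood apart (adjusted p = 0.0912). The 7 were those without control 1, control 3, cytochalasin D 1, cytochalasin D 2, apoptotic cells 1, apoptotic cells 4 or both 4. In that test of the difference, 3 of the 12 genes were higher and 1, Eif2b4, was lower, against 3.03% and 1.53% of all genes tested. With single libraries left out, 0 to 3 were higher and 0 to 1 lower, and without the 3 libraries that stood apart none was called.

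The cytosolic tRNA synthetases, which load amino acids onto tRNA and many of which ATF4 induces, were tested beside Atf4. Of 13 genes of this list with the tRNA exporter Xpot, 6 fell and none rose with apoptotic cells, where 6.68% of all genes fell, and 6 fell and none rose under cytochalasin D, where 3.79% fell. Aars, for alanine, went from 443 ± 10.4 to 351 ± 8.67 CPM with apoptotic cells (log2 -0.34, edgeR adjusted p = 2.38e-07) and from 590.1 ± 11.2 to 461 ± 8.12 CPM under cytochalasin D (log2 -0.36, edgeR adjusted p = 9.38e-08). Cars, for cysteine, fell by 0.33 and 0.35 and Yars, for tyrosine, by 0.22 and 0.28 on the log2 scale in the same comparisons (edgeR adjusted p from 8.95e-06 to 0.00107). With cytochalasin D, 5 rose and 1 fell, and with apoptotic cells present 5 rose and none fell, against 13.5% and 16.4% of all genes that rose. Aars rose by 0.41 and 0.39 on the log2 scale, and Xpot was the one that fell, by 0.19 (edgeR adjusted p = 0.000533). These counts depended on single libraries. Without cytochalasin D 3, 3 fell under the drug, and without cytochalasin D 1 or the 3 libraries that stood apart, 3 rose with it. With apoptotic cells present, the number that rose was 2 to 4 with single libraries left out and 2 without the 3 libraries. In Slc12a2-deficient cells 1 rose and 2 fell (3 rose without Slc12a2-deficient 2), and the one that rose was Aars, 1.76-fold, from 252 ± 15.4 to 444 ± 9.93 CPM (log2 0.82, edgeR adjusted p = 1.97e-09).

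Among 11 enzymes of amino acid synthesis and one-carbon metabolism, 2 rose and 4 fell with apoptotic cells, against 6.97% and 6.68% of all genes. The 4 that fell were 4 in every fit with 1 library left out, whereas 1 rose when any single control library, apoptotic cells 3 or apoptotic cells 4 was left out. Under cytochalasin D none rose and 3 fell, against 3.79% of all genes that fell, and 1 fell without both 4. Mthfd2, a mitochondrial folate enzyme and ATF4 target, fell in both comparisons (log2 -0.27 and -0.24, edgeR adjusted p = 2.49e-05 and 0.000147) and rose with cytochalasin D (log2 0.25, edgeR adjusted p = 1.41e-05), as Atf4 did. Across the list, cytochalasin D raised 1 and lowered 3, against 13.5% and 12.8% of all genes. With apoptotic cells present it again raised 1 and lowered 3, against 16.4% and 16.1%. In each, 1 rose and 2 to 3 fell with single libraries left out. Got1, the cytosolic aspartate aminotransferase, was among those that fell with the drug alone (log2 -0.35, edgeR adjusted p = 1.70e-07). Psat1, of serine synthesis, fell with apoptotic cells and also with cytochalasin D (log2 -0.24 and -0.20, edgeR adjusted p = 0.000270 and 0.000547). In Slc12a2-deficient cells 2 of 10 enzymes rose and 3 fell, shares near those of all genes, and 1 rose without wildtype 3 or wildtype 4. In these cells Got1 was 1.63-fold higher (edgeR adjusted p = 3.47e-08).

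Of 8 amino acid transporters, 1 rose and 4 fell with apoptotic cells, and with single libraries left out 3 to 5 fell. The 1 that rose was lost without control 1 or apoptotic cells 3. The arginine and lysine carrier Slc7a1 went from 55.4 ± 3.61 to 37.9 ± 2.13 CPM (log2 -0.54, edgeR adjusted p = 0.000128). The cystine carrier Slc7a11, at 3.97 ± 0.971 CPM in control, was 2.13-fold lower (edgeR adjusted p = 0.00841). With cytochalasin D 1 transporter rose and 4 fell, against 13.5% and 12.8% of all genes, among them the large neutral amino acid carrier Slc7a5 (log2 -0.28, edgeR adjusted p = 1.60e-05). Without control 1 or cytochalasin D 3, 2 fell, and without the 3 libraries that stood apart 3 fell. The 1 that rose was lost without those 3, without control 1, 2 or 4 and without cytochalasin D 1 or 2. Under cytochalasin D, apoptotic cells raised none and lowered 2, against 4.82% and 3.79% of all genes. There, 0 to 1 rose and 1 to 2 fell with single libraries left out. When apoptotic cells were present, cytochalasin D raised 3 and lowered 3, against 16.4% and 16.1%. With single libraries left out, 0 to 2 rose and 3 to 4 fell, and without the 3 libraries that stood apart 1 rose and 3 fell. In deficient cells 1 rose and 1 fell. The 1 that fell was lost in every fit with 1 library left out except that without Slc12a2-deficient 1, and 2 rose without Slc12a2-deficient 2.

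Among 13 other ATF4 targets and partners, 1 rose and 5 fell with apoptotic cells, 1 rose and 5 fell under cytochalasin D, 7 rose and 1 fell with cytochalasin D, and 6 rose and 1 fell with it when apoptotic cells were present. With single libraries left out, 4 to 5 fell with apoptotic cells and 4 to 6 under cytochalasin D, and the 7 and 6 that rose with cytochalasin D did not change in number, against 13.5% and 16.4% of all genes. Sqstm1, the autophagy receptor p62, was at 66.1 ± 3.34 CPM in control, 44.3 ± 4.90 CPM with apoptotic cells, 175 ± 8.47 CPM with cytochalasin D and 96.6 ± 1.63 CPM with both. It fell by 0.58 and 0.86 on the log2 scale with apoptotic cells (edgeR adjusted p = 1.69e-06 and 1.50e-09) and rose 2.65-fold and 2.18-fold with cytochalasin D (edgeR adjusted p = 2.10e-14 and 2.03e-12), the order of groups seen for Atf3. Hmox1, the haem oxygenase that Nrf2 also induces, rose with both treatments, 1.22-fold with apoptotic cells and 1.91-fold with cytochalasin D (edgeR adjusted p = 0.000879 and 3.71e-12). In Slc12a2-deficient cells 1 of the 13 rose and 5 fell, against 21.1% and 21.3% of all genes, and 0 to 2 rose and 4 to 5 fell with single libraries left out (0 without wildtype 3, wildtype 4 or Slc12a2-deficient 1, and 2 without wildtype 1 or Slc12a2-deficient 2). Among those that fell were Ndrg1, 1.58-fold lower, and the growth factor Vegfa, 1.46-fold lower (edgeR adjusted p = 1.84e-08 and 1.27e-06).

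Endoplasmic reticulum genes of the ATF6 and XBP1 pathways, the other arms of the unfolded protein response, gave their highest count of calls with genotype. The list holds regulators of these pathways, such as Atf6b, beside the genes they drive. In Slc12a2-deficient cells 13 of 22 fell and none rose, against 21.3% of all genes that fell, and leaving out any single library gave 13 or 14. The chaperone Pdia4 went from 545 ± 21.7 to 328 ± 10.1 CPM (log2 -0.73, edgeR adjusted p = 2.71e-09), the Hsp90 homologue Hsp90b1 from 3783 ± 89.8 to 2806 ± 42.3 CPM (log2 -0.43, edgeR adjusted p = 2.82e-07), and the transcription factor Atf6b was 1.72-fold lower (edgeR adjusted p = 7.65e-09). With apoptotic cells 4 of the 22 rose (3 to 4 with single libraries left out) and none fell, all by 0.32 or less on the log2 scale, with the chaperone Hspa5 at 0.12 (edgeR adjusted p = 0.00830). With cytochalasin D 4 rose and 1 fell, against 13.5% and 12.8% of all genes (2 fell without control 2, cytochalasin D 1 or the 3 libraries that stood apart), and under it apoptotic cells lowered 1, Herpud1 (log2 -0.32, edgeR adjusted p = 0.000365). The number that rose with cytochalasin D was 3 to 6 with single libraries left out. When apoptotic cells were present, cytochalasin D raised 2 and lowered 4, against 16.4% and 16.1% of all genes. With single libraries left out, 0 to 2 rose and 2 to 5 fell there. Of 6 mitochondrial stress genes, none was called with apoptotic cells and 1 fell with cytochalasin D (2 without cytochalasin D 2 or 4). In deficient cells 3 rose and 2 fell, where 42.5% of all genes were called, and 1 to 2 fell with single libraries left out, 1 without wildtype 1, 3 or 4 or Slc12a2-deficient 3 or 4. The matrix proteases Clpp and Lonp1 were 1.85-fold and 1.75-fold higher (edgeR adjusted p = 2.17e-09 and 4.89e-09), and the mitochondrial chaperone Hspa9 was 1.14-fold lower (edgeR adjusted p = 0.00183).

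Ddit4 acts on mTORC1, and 9 regulators of that kinase were tested beside it. With apoptotic cells 2 rose and none fell, against 6.97% of all genes that rose, but no fit with 1 library left out kept both. In these fits 0 to 1 rose, 0 without control 1, control 2 or apoptotic cells 3, and 1 fell without control 3 or apoptotic cells 2. Without the 3 libraries that stood apart 1 rose. With cytochalasin D 3 rose and none fell, against 13.5% of all genes that rose (2 to 3 with single libraries left out), led by Tsc1, a subunit of the inhibitory complex (log2 0.31, edgeR adjusted p = 4.36e-05). When apoptotic cells were present, cytochalasin D raised 1 and lowered 2, against 16.4% and 16.1% of all genes (1 to 2 fell with single libraries left out). Under cytochalasin D, apoptotic cells raised none and lowered 1, against 4.82% and 3.79%. Txnip, which also restrains glucose uptake, was the 1 regulator of the 9 whose response to apoptotic cells differed with the drug (log2 -0.49, edgeR adjusted p = 0.000194), in the direction seen for Ddit4. It was at 82.0 ± 1.51 CPM in control, 91.0 ± 3.11 CPM with apoptotic cells, 82.9 ± 4.42 CPM with cytochalasin D and 65.3 ± 2.50 CPM with both. In Slc12a2-deficient cells 3 rose and 2 fell, against 21.1% and 21.3% of all genes (1 rose without wildtype 3 or Slc12a2-deficient 3), and Akt1s1, the mTORC1 subunit PRAS40, was 2.24-fold and the activating GTPase Rheb 1.85-fold lower (edgeR adjusted p = 1.23e-10 and 1.03e-08).

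**Figure D4:**
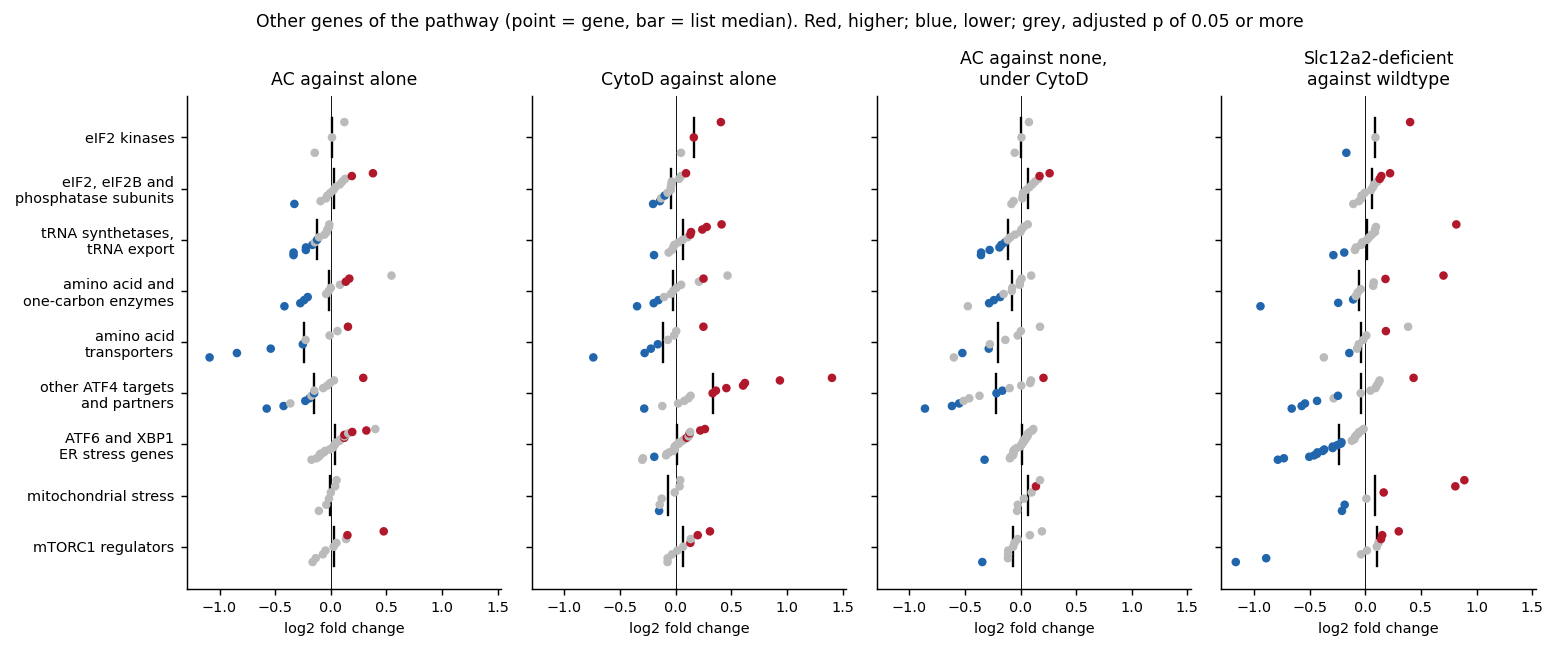
log2 fold change (edgeR) of other genes of the pathway, by list, for apoptotic cells, cytochalasin D, apoptotic cells under cytochalasin D and genotype. AC stands for apoptotic cells and CytoD for cytochalasin D, points are genes, called genes are red (higher) or blue (lower), and bars are list medians. In the genotype panel 13 of 22 endoplasmic reticulum genes are blue and none is red, and in the panels for apoptotic cells 6 of 13 tRNA synthetase genes are blue and none is red.

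Across the 16 libraries of the first experiment, which share 4 treatment groups, Atf4 and Trib3 had the highest correlation of log2 CPM among the 10 genes (Pearson's r 0.980), followed by Atf3 and Ddit3 (0.970). Chac1 had an r of 0.16 with Atf4 and 0.07 with Trib3, and Ddit4 and Ddit3 had the lowest, at -0.50. Outside the 10, the genes with the profile most like that of Atf4 were Aars (0.983), Mthfd2 (0.976), Nbr1 (0.974), Plekhm1 (0.972) and Ppp1r12b (0.969). Most like Trib3 were Kiaa0247 (0.968), Ppp1r12b (0.957), Nfkbia (0.956), Aars (0.952) and Plxna1 (0.950). For Chac1 they were Zfand2a (0.972), Alas1 (0.955), Chst11 (0.951), Mmp10 (0.943) and Eno2 (0.942), and for Atf3 Psap (0.980), Hs1bp3 (0.979), Plat (0.979), Dennd3 (0.978) and Ttyh2 (0.972). Aars and Ppp1r12b were on the lists of both Atf4 and Trib3. Across the 8 libraries of the second experiment, which share 2 genotypes, Chac1 went with Ppp1r15a (0.986) and with Atf5 (0.984), and Atf4 with Trib3 at -0.21.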

How the data were processed

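RNA-seq libraries of 75 bp read pairs were made from total RNA, per the labels' protocols. The deposited files hold unnormalized counts of fragments, summed over the exons that share a gene name. Per the file headers, the authors counted with featureCounts 1.5.0, took pairs with both ends aligned and set no strand option. The submitters' processing notes name FastQC, STAR, featureCounts and DESeq2. Of the STAR version, the genome build and how long the first co-culture lasted, none is given in the sources used here. Gene lengths in the deposited tables served for levels per kb. A row with a blank name, holding 0.0249% to 0.0445% of counts in the first experiment and 1.13% to 1.65% in the second, was left out.

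Each experiment was fitted alone with edgeR 4.0.16 in R 4.3.3 (TMM factors, filterByExpr with a minimum count of 10 and a minimum total of 15, quasi-likelihood F test on group). P-values were adjusted by Benjamini-Hochberg over all genes tested. SE is the absolute log2 fold change over the square root of F. Biological coefficients of variation were 7.04% and 6.06%. A floor of 3 counts was 0.159 to 0.363 CPM in the first and 0.105 to 0.132 CPM in the second experiment and covers counting error only. The labels call the 4 libraries of a group biological replicates, and no 2 libraries agreed within counting noise.

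The 10 genes, the gene lists and the tests were chosen with earlier results of these data known. All 10 genes are reported in every comparison. From each other list the text takes, per comparison, genes among the up to 3 called with the lowest adjusted p. For Atf4, Trib3, Chac1 and Atf3 the 5 genes with the highest Pearson correlation of log2 CPM (prior count 2) are named. Alternatives were DESeq2 1.42.0, limma-voom (limma 3.58.1), relative log expression factors, no filter, 1 CPM in 4 libraries, removal of a trend with gene length, only the 8 libraries compared, a block on replicate or library number, each library left out and, added after the data were seen, removal of the 3 libraries that stood apart and ratios within runs of library numbers. The scripts were tested on simulated data.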

Additional observations from a re-analysis of the deposited data

Results flagged for a closer look

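Within groups of 4 libraries, 60 combinations of gene and group were tested for a library whose gap to its nearest neighbour, divided by the range of the group, exceeds Dixon's critical value. Chance flags about 1 in 20, and 3 were found. Apoptotic cells 3 was the highest of its group for Atf5, at 63.8 against 57.9 CPM in the next library (ratio 0.926), and for Ddit4, at 36.4 against 29.9 CPM (ratio 0.841). Without this library the rise of Ddit4 with apoptotic cells was 0.30 on the log2 scale and was not called by edgeR (adjusted p = 0.109). Slc12a2-deficient 2 was the highest of its group for Chac1, at 6.45 against 5.42 CPM (ratio 0.833), and every wildtype library was above it.

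The effect of apoptotic cells on Ddit4 differed with cytochalasin D by -1.08 on the log2 scale in the edgeR test of the difference itself. It remained called when any 1 library was left out (-1.18 to -0.97, adjusted p from 0.000179 to 0.00230).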

How the results depend on the processing

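Over 60 results (10 genes in 6 comparisons) and 1070 alternative values, 1017 kept their direction and their side of the threshold, 20 lost a call, 12 gained one and 21 reversed. The number of the 10 genes called stayed within 1.5 times the reported count in all 107 alternative counts. No called gene reversed. The reversals were of values near 0. The difference between effects for Asns was -0.00 and became 0.00265 with DESeq2, 0.00268 with relative log expression factors, 7.2e-05 with no filter and 0.0059 with the replicate block. It ranged from -0.0513 to 0.0545 with single libraries left out. Atf5 with cytochalasin D became -0.0682 without the 3 libraries that stood apart, and ranged from -0.0303 to 0.0825 with single libraries left out. Atf5 with apoptotic cells ranged from -0.0815 to 0.0172, and Ddit4 with genotype from -0.14 to 0.11. Asns under cytochalasin D was lost in the fit of 8 libraries (adjusted p = 0.0565). Calls were gained for Atf5 under cytochalasin D with no filter (adjusted p = 0.0414) and without cytochalasin D 4 (0.0120), for Atf5 with cytochalasin D and apoptotic cells in the 8-library fit (0.0458) and without both 1 (0.0449), and for Asns with cytochalasin D without cytochalasin D 1 (0.0373) or the 3 libraries (0.0407).

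Over 24 pairs of libraries with the same replicate number in the first experiment, deviations correlated between -0.06 and 0.23, with 3 above 0.1. The 3 were control 4 with both 4 (0.19), cytochalasin D 1 with both 1 (0.21) and cytochalasin D 4 with both 4 (0.23). Pairs with different numbers were not compared, so whether the numbers pair libraries was not tested. The replicate block added calls for Atf5 under cytochalasin D (adjusted p = 0.0371) and with cytochalasin D and apoptotic cells (0.0410). In the second experiment a library-number replicate block gave 8 calls, adding Trib3 (log2 -0.27, adjusted p = 0.0257).

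Counts over all genes moved more. For apoptotic cells, 1789 calls became 1103 without apoptotic cells 3. Under cytochalasin D, 1129 became 662 without the 3 libraries. For the difference between effects, 598 became 950 with DESeq2, 928 with no filter, 120 without the 3 libraries and 251 to 1645 with single libraries left out. The cause was not tested. Atf3, at 23 to 50 counts in control libraries, had the widest SE of the 10 genes.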
